A study of Mus musculus with 2 samples.

Results

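Isl1 peaks nearest to microRNA genes made up 1717 of the 48295 Isl1 binding sites listed for the cardiogenic region of mouse embryos, or 3.56% (95% Wilson interval 3.39 to 3.72%). They were taken from the list by the name and RefSeq entry of the closest gene, with no value of the peak involved. The entry had to be a noncoding transcript and the symbol had to start with Mir and a digit, or with Mirlet. The 1717 peaks were nearest to 423 genes, of which 419 encode a microRNA hairpin and 4 (Mir124a-1hg, Mir124-2hg, Mir9-3hg and Mir99ahg) are long host RNAs that carry hairpins and had 24 peaks between them.

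The peaks come from chromatin immunoprecipitation followed by sequencing (ChIP-Seq) with a monoclonal antibody against Isl1, in wild-type C57BL/6 mouse embryos between E8.25 and E9. Cardiogenic mesoderm and heart tissue of 60 to 80 embryos were pooled into 1 immunoprecipitated sample, and the other sample of the series, chromatin of the same stage and strain without antibody, was not analysed here. No embryo was mutated or treated. The list gives the position of each peak, the closest transcription start site (TSS) and the distance to it, but no height or p-value, and the depth is unknown. With 1 list there was no replicate check and no test between samples, and the Wilson intervals cover counting error only. The dissected tissue holds several cell types, to which single peaks cannot be assigned, and no expression was measured in these samples against which the tissue label could be checked.

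Isl1 is a LIM-homeodomain transcription factor of second heart field progenitors, which build the outflow tract, the right ventricle and much of the atria. MicroRNAs are cut as hairpins from longer primary transcripts, and the mature strand represses messenger RNAs that pair with its seed, bases 2 to 8 from the 5′ end. Several microRNAs of heart muscle sit in introns of myosin heavy chain genes and are made together with them: miR-208a in Myh6, miR-208b in Myh7 and miR-499 in Myh7b. The start site of a primary transcript can lie far from the hairpin, which matters for how the distances are read.

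The mature sequences of muscle microRNAs are shown because close relatives by sequence were found both with and without an assigned peak. They are taken from RefSeq, and capitals mark the seed. Mir206, Mir133b and Mir208b had an assigned peak, while Mir208a and Mir499 had none.
miR-206-3p: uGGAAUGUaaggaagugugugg
miR-133b-3p: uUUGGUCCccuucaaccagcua
miR-208b-3p: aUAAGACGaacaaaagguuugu
miR-208a-3p: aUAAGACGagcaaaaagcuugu
miR-499-5p: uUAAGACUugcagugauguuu
miR-208a-3p and miR-208b-3p had the same 7 seed bases, although 1 hairpin had an assigned peak and the other did not. Against miR-208a-3p, miR-499-5p had the substitution G8U, counted from 1 at the 5′ end.

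Next to heart muscle microRNAs, 8 peaks were assigned to 6 of the 11 genes on the list (Mir206, Mir133b, Mir208b, Mir486, Mir133a-1 and Mir1a-2), a share of 54.5%. Of all 1228 microRNA genes in RefSeq, 418 had an assigned peak (34.0%). Of the 6 genes, 4 had an assigned peak within 10 kb, and no further gene of the list had any peak that close. The list covers cardiomyocytes (Mir1a-1, Mir1a-2, Mir133a-1, Mir133a-2, Mir208a, Mir208b and Mir499). It also covers skeletal and other striated muscle (Mir1b, Mir133b, Mir206 and Mir486). Of the 6 genes with an assigned peak, Mir208b, Mir133a-1 and Mir1a-2 are from the cardiomyocyte part. Mir206, Mir133b and Mir486 are from the other part, so 54.5% is not a share of cardiomyocyte genes alone. Of the 4 genes with a close assigned peak, only Mir208b is from the cardiomyocyte part. Over all 989 hairpins placed on mm9, 229 had a peak of any assignment within 10 kb (23.2%). All 8 peaks held a long run of purines or pyrimidines, as most peaks of the list did. With 11 genes, several of them neighbours, the share is a description of this list.

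Mir206 and Mir133b, which lie 3.76 kb apart on chromosome 1 and are best known from skeletal muscle, had the densest group of peaks. Mir206 had 2 assigned peaks, at chr1:20668171-20668938 and chr1:20665618-20666063 of mm9, and their midpoints lay 0.537 kb and 3.25 kb upstream of the first base of the hairpin. The Mir133b peak, chr1:20677928-20678260, lay 5.24 kb downstream of its hairpin. All 3 were in intergenic sequence of the GENCODE annotation. A further 2 peaks were assigned to Linc-md1, the muscle long noncoding RNA from whose locus miR-133b is made. They lay 5.0 kb and 8.68 kb upstream of the Mir206 hairpin and 4.12 kb and 0.446 kb downstream of the start site listed for Linc-md1. The GENCODE annotation held no start site there, as the closest to the 3 assigned peaks was that of Il17a, 42.9 to 55.1 kb away. Intergenic therefore does not mean outside Linc-md1 here. Thus 5 peaks stood within 10 kb of the Mir206 hairpin, and 4 of these within 10 kb of the Mir133b hairpin.

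Mir208b and Mir208a lie 26.6 kb apart on chromosome 14, in Myh7 and Myh6, the slow and fast cardiac myosin heavy chain genes. Mir208b had 1 peak, chr14:55596131-55596621, in an intron of Myh7 and 1.76 kb upstream of the hairpin. No other peak lay between 32 kb upstream and 36 kb downstream of the Mir208b hairpin, a stretch that covers all of Myh7 and Myh6. The Mir208a hairpin was 25.5 kb from the nearest peak, which was assigned to Efs. Mir499, in Myh7b, was 58.8 kb from the nearest peak, assigned to Trpc4ap.

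Mir486, which is expressed in striated muscle and erythroid cells from within the ankyrin gene Ank1, had 1 peak at chr8:24251637-24252122, in an intron of Ank1 and 1.15 kb upstream of the hairpin start used by the list. An annotated Ank1 start site lay 1.31 kb from this peak, so that it was almost as close to a coding promoter as to the hairpin.

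The miR-1 and miR-133a genes, whose products are the most abundant microRNAs of the differentiated heart, are arranged as a pair of clusters, and none of them had a peak within 10 kb. In the Mib1 locus, Mir133a-1 had 1 peak 26.8 kb downstream of its hairpin in an intron of Mib1. In the same locus, Mir1a-2 had peaks 67.9 kb and 123 kb upstream, both intergenic, and Mir1b had none assigned, with the Mir133a-1 peak nearest at 29.3 kb. Mir1a-2 starts within the Mir1b hairpin, on the opposite strand, so the Mir133a-1 peak was also closer to Mir1a-2 than its assigned peaks. In the other cluster, Mir1a-1 and Mir133a-2 had no assigned peak. The nearest peaks to them lay 80.7 kb and 87.8 kb away and were assigned to Rbbp8nl and Ntsr1.

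**Figure D1:**
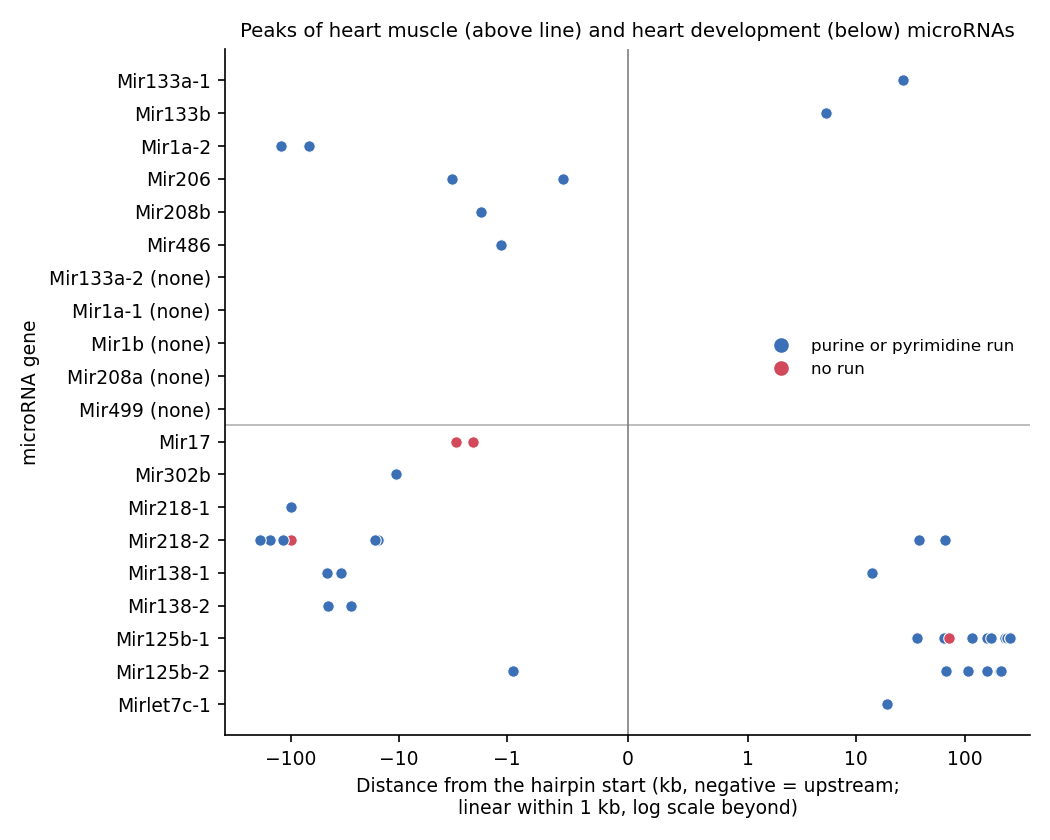
Each point is a peak, placed by its distance from the hairpin start (kb, negative upstream, linear within 1 kb and logarithmic beyond); rows are all 11 heart muscle microRNA genes above the line and the genes with an assigned peak from the heart development list below it, and blue or red marks peaks with or without a purine or pyrimidine run. Mir206, Mir208b, Mir486 and Mir133b have peaks within 10 kb, 5 muscle genes have none, and the 2 peaks upstream of Mir17 hold no run.

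**Figure D2:**
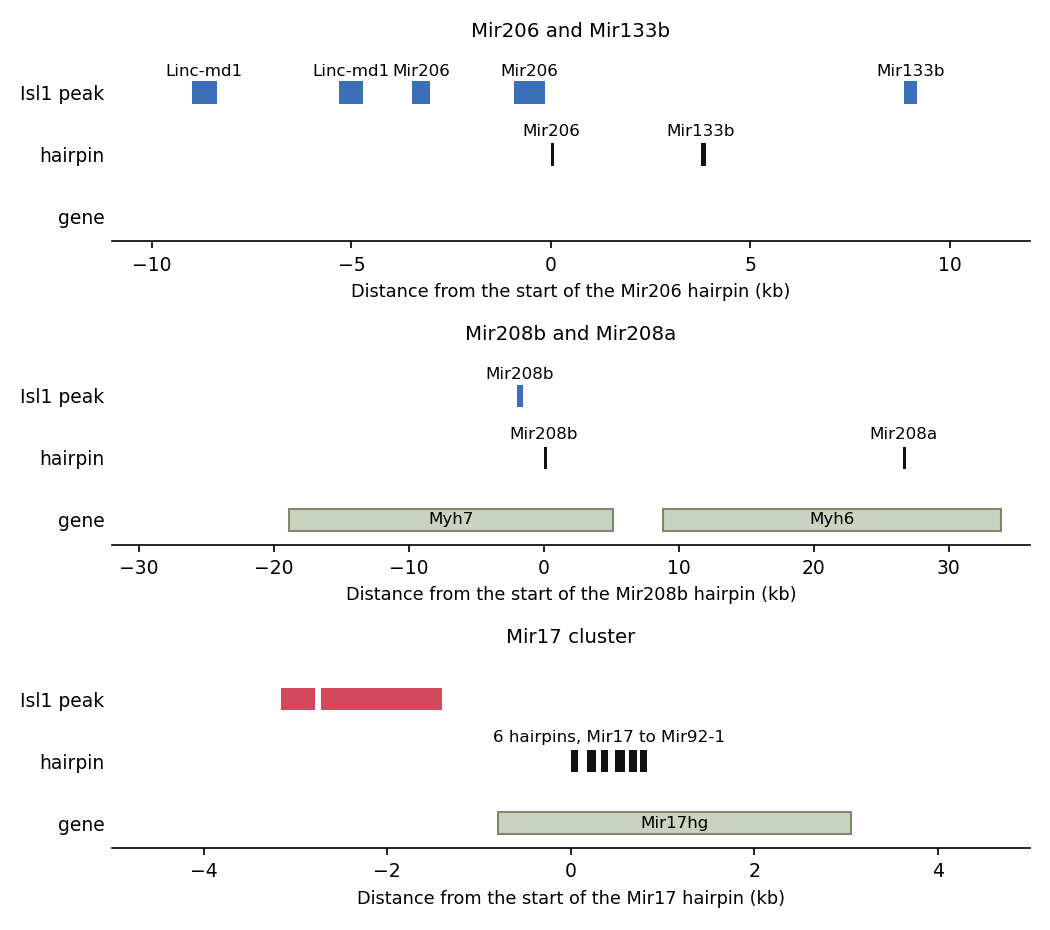
Positions of Isl1 peaks, microRNA hairpins and genes in 3 loci, in kb from the start of the named hairpin and in its direction of transcription; blue peaks hold a run and red ones do not, and labels over peaks give the gene of assignment. The Mir206 map shows 5 peaks within 10 kb of the hairpin, the Mir208b map 1 peak in Myh7 and none in Myh6, and the Mir17 map 2 peaks just before the host gene Mir17hg.

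The central 200 bp of the peaks assigned to Mir133b, Mir208b and Mir486 are shown, on the plus strand of mm9, because they carry the feature that most peaks shared. Capitals mark the longest uninterrupted run of purines (A or G) or pyrimidines (C or T).
Mir133b, chr1:20677995-20678194: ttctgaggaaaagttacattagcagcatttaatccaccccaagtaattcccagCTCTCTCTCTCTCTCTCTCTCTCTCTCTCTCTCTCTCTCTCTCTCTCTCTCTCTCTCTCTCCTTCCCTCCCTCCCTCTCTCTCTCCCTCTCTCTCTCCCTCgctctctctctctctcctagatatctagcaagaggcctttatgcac
Mir208b, chr14:55596277-55596476: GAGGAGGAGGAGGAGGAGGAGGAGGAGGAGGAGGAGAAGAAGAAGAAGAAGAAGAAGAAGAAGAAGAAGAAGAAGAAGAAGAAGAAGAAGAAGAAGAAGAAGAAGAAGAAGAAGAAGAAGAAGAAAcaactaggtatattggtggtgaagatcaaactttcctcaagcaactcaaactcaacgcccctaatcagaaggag
Mir486, chr8:24251780-24251979: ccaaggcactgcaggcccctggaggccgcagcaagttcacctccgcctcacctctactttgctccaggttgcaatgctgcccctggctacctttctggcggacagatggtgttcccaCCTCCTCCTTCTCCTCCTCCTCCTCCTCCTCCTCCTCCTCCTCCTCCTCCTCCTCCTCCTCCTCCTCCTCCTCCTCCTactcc
The runs were 101, 126 and 78 bp long in this order. The windows of Mir133b and Mir208b also held TAAT or its reverse complement ATTA, the core that LIM-homeodomain proteins recognise, and that of Mir486 did not. The letters are a match and not a measured site. Of the 8 peaks of the heart muscle list, 3 held them in this window, against 35.3% of all peaks.

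MicroRNAs of heart development and cardiac progenitors had 34 peaks, assigned to 9 of 28 genes. Of these, Mir17 and Mir125b-2 had an assigned peak within 10 kb. With every peak counted whatever its assignment, 8 of the 28 genes had one within 10 kb of the hairpin, against 23.2% of all 989 placed hairpins. They were the 6 of the Mir17 cluster, Mir125b-2 and Mir125b-1. The hairpin of Mir15a was not located on mm9, so its nearest peak was not measured. The Mir17 cluster encodes 6 hairpins that promote proliferation of cardiac progenitors and cardiomyocytes and is transcribed as 1 host RNA, Mir17hg. Its 2 peaks, chr14:115440173-115441489 and chr14:115439736-115440109, lay 2.06 kb and 2.97 kb upstream of the Mir17 hairpin and 1.27 kb and 2.18 kb from the annotated start of Mir17hg. The other 5 hairpins of the cluster had no assigned peak, since the list gives each peak to the closest start site, and lay 2.24 to 2.82 kb from the nearer of these peaks. The number of genes with an assigned peak therefore counts a cluster once.

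The peaks of Mir17 and Mirlet7i were unlike those of the muscle genes in sequence, as the next windows show, in which capitals mark CG dinucleotides on the plus strand of mm9.
Mir17, chr14:115440732-115440931: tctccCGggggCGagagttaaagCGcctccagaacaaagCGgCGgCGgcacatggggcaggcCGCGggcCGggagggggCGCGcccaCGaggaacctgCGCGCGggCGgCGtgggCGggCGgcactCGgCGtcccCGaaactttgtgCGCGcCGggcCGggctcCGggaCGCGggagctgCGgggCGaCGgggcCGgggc
Mirlet7i, chr10:122422884-122423083: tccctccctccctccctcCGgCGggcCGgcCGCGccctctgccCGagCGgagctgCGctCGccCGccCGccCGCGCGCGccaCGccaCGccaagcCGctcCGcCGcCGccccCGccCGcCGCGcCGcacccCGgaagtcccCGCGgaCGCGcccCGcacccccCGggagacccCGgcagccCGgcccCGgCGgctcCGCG
The Mir17 window had 33 CG dinucleotides and a GC content of 79.0%, and the Mirlet7i window had 39 and 87.0%. Neither held a run of 25 bp. The windows of Mir133b, Mir208b and Mir486 held between 1 and 3 CG dinucleotides.

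Among the other heart development genes, Mir125b-2, in the host RNA region of Mir99a and let-7c, had 6 peaks from 0.948 kb upstream to 216 kb downstream. Mir125b-1 had 10 assigned peaks, all downstream, between 36.1 and 265 kb, and a peak assigned to 3110039I08Rik lay 6.35 kb upstream of it. Mirlet7c-1 had 1 peak 19.2 kb downstream. Mir302b, the first hairpin of the miR-302/367 cluster of pluripotent cells and early heart progenitors, had 1 peak 10.7 kb upstream, and the nearest peak to Mir302a, Mir302c, Mir302d and Mir367 was the same one.
The miR-218 genes lie inside Slit2 and Slit3, which encode guidance ligands with a role in heart tube formation. Mir218-2 had 8 peaks, the closest 15.7 kb upstream, and all 8 were in introns of Slit3. Mir218-1 had 1 peak in an intron of Slit2, 99.6 kb upstream. Mir138-1 had 3 peaks, the closest 13.9 kb downstream, and Mir138-2 had 2, the closest 27.7 kb upstream, both in introns of Nup93. miR-138 is known for patterning the chambers of the zebrafish heart.

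Genes of the list for heart stress, growth and fibrosis had 17 peaks, assigned to 5 of 31 genes, and none of the 5 had a peak within 10 kb. The antifibrotic Mir29b-1 had 1 peak 16.9 kb upstream. Of the Mir30 family, Mir30a had 2 peaks, the closest 45.0 kb upstream, and Mir30d had 7 peaks, all upstream, from 21.7 to 273 kb. Mir214 had 4 peaks in introns of Dnm3, the closest 15.2 kb downstream, and Mir378a had 3 peaks between 50.4 and 62.3 kb downstream. The assignment rule hid some close peaks of this list. A peak 0.679 kb upstream of the Mir199a-2 hairpin was assigned to Dnm3os, the antisense transcript from which miR-199a and miR-214 are cut, and the same peak lay 6.23 kb upstream of Mir214. Mir22 lay 6.37 kb from a peak of Wdr81, Mir132 and Mir212 lay 5.72 kb and 6.01 kb from a peak of Ovca2, and Mir26b lay 7.94 kb from a peak of Ctdsp1. With every peak counted whatever its assignment, 6 of the 31 genes had a peak within 10 kb of the hairpin. Over all 989 placed hairpins this share was 23.2%. The hairpin of Mir378a was not located on mm9, and it was counted by its assigned peaks alone.

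In the vessel list 3 of 10 genes had peaks, 14 in all, and none was within 10 kb. Mir221 and Mir222, neighbours on the X chromosome that act in endothelial and smooth muscle cells, had 7 and 6 peaks, the closest 62.9 kb downstream and 38.3 kb upstream. Mir100 had 1 peak 15.4 kb upstream. Mir126a, the endothelial microRNA of Egfl7, had no assigned peak, and a peak of Agpat2 lay 9.83 kb away.

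Lists of microRNAs of other cell types give a comparison, since the dissected region also holds neural, epithelial and other cells. In the neural list, 7 of 18 genes had 21 peaks, and 4 had an assigned peak within 10 kb. With every peak counted, 5 of the 18 had one, against 23.2% of all 989 placed hairpins. The added gene was Mir9-3, 8.73 kb from a peak of its host RNA Mir9-3hg. The hairpin of Mir124a-2 was not located on mm9, so its nearest peak was not measured. With the peaks of the host RNAs Mir9-3hg, Mir124a-1hg and Mir124-2hg counted for their hairpins, a choice made after seeing the data, 10 of the 18 genes had a peak (55.6%). Mir7-2 had 1 peak 0.885 kb downstream, Mir9-2 had 4 with the closest 5.25 kb downstream, Mir137 had 4 with the closest 6.95 kb upstream, and Mir124a-3 had 3 with the closest 9.22 kb upstream. Mir128-1, Mir128-2 and Mir153 had peaks whose closest lay 41.0 kb, 31.7 kb and 29.6 kb from the hairpin. Isl1 is also a factor of motor and sensory neurons, so that neural microRNAs are no negative control. In the epithelial list, Mir205 alone of 7 genes had peaks, 7 of them, with the closest 9.52 kb downstream. Of the 11 let-7 genes, which promote differentiation, 3 had peaks. Mirlet7i had 6, of which the closest was 0.203 kb upstream, Mirlet7d had 1 at 8.63 kb downstream, and the third gene was Mirlet7c-1. Against 34.0% of all microRNA genes, the share with an assigned peak was 54.5% in the heart muscle list, 38.9% in the neural, 32.1% in the heart development, 30.0% in the vessel, 27.3% in the let-7, 16.1% in the stress and 14.3% in the epithelial list. Each list is short, and the heart muscle list also holds genes of skeletal and other striated muscle. The shares were not tested, and with host RNAs counted the neural share (55.6%) was above that of heart muscle (54.5%). Only the 4 host RNAs named after a microRNA were counted in this way, not coding host genes. The 34.0% of all microRNA genes was not recounted with them.

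What the distances measure was checked against the hairpins. Of 1005 RefSeq hairpin sequences, 989 were found at a single place on their chromosome of mm9. For all 1362 peaks of the 342 genes placed in this way, the deposited distance equalled the distance from the peak midpoint to the first base of the hairpin, to the base. The TSS of a microRNA gene in the list is thus the 5′ end of the hairpin and not the promoter of the primary transcript. A peak at the promoter of a host gene or of a long primary transcript is listed either under that host or as a distant peak of the microRNA.

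By these distances, microRNA-nearest peaks lay a median of 85.3 kb from the start site (quartiles 25.6 and 228 kb), with a range from 132 bp to 1663 kb. The median was 53.0 kb for peaks nearest to coding genes and 94.1 kb for peaks nearest to other noncoding genes. Within 1 kb lay 27 microRNA-nearest peaks (1.57%, interval 1.08 to 2.28%), against 2.58% of all peaks. Within 10 kb lay 209 (12.2%, interval 10.7 to 13.8%), against 15.9% of all peaks, and within 100 kb lay 924 (53.8%, interval 51.5 to 56.2%), against 62.5%. Beyond 500 kb were 144 (8.39%, interval 7.17 to 9.79%), against 7.69%. Peaks upstream of the hairpin numbered 647 (37.7%, interval 35.4 to 40%), against 47.5% upstream of the TSS among all peaks and 46.8% among those nearest to other noncoding genes. The distances lay closer to those of other noncoding genes than to those of coding genes, and a larger share of the peaks was downstream than in either class. The intervals treat peaks as independent, although many share a gene, and the share was not counted by gene. All 28 peaks of Mir7232 and all 25 of Mir6336 were downstream, while 36 of the 45 of Mir6350 were upstream.

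**Figure D3:**
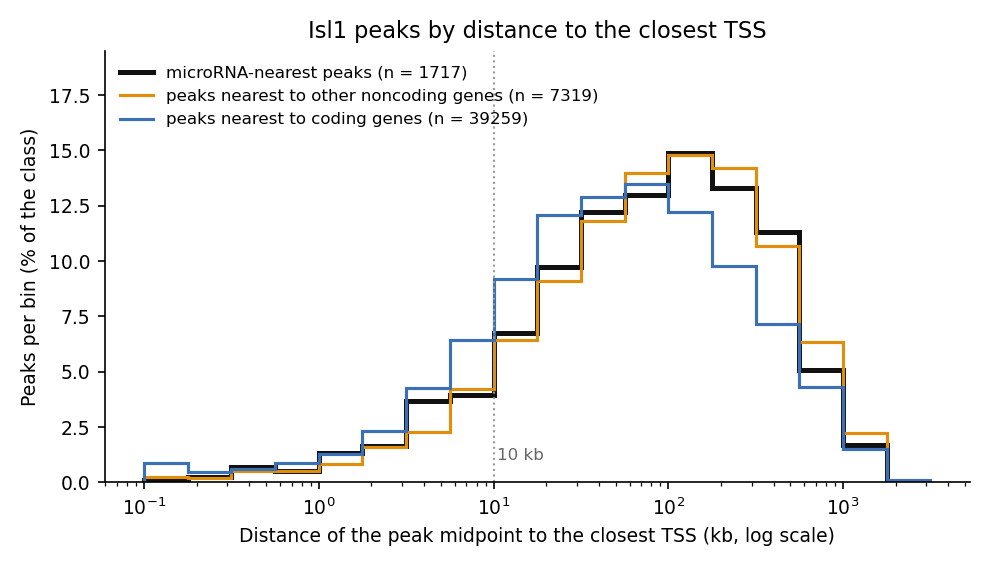
Distance of the peak midpoint to the closest TSS (kb, log scale) against the share of peaks per bin (% of the class) for peaks nearest to microRNA, other noncoding and coding genes; the dotted line is at 10 kb, and peaks closer than 0.1 kb are counted in the first bin. The microRNA and other noncoding curves lie to the right of the coding curve, with medians of 85.3, 94.1 and 53.0 kb.

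By position, 1120 of the 1717 peaks (65.2%, interval 62.9 to 67.4%) were intergenic, against 64.1% of all peaks, 591 lay in introns and 6 in exons. Hairpins inside a coding gene of the same strand had 501 peaks, of which 301 (60.1%, interval 55.7 to 64.3%) lay in that same gene. Of the 164 genes behind them, 121 had at least 1 peak there. No matching share was counted for peaks nearest to coding genes, so these numbers describe position only. Within 1 kb of the start site of a GENCODE gene that is not typed there as a microRNA lay 24 microRNA-nearest peaks (1.40%), against 4.18% of all peaks.

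The 10 peaks closest to a start site lay within 350 bp of it, and 6 of them were upstream. The closest belonged to Mir124-2hg, 132 bp upstream of the host RNA of a neuronal miR-124 gene. Next came Mir7093 (133 bp upstream, in an intron of Armcx3) and Mirlet7i (203 bp upstream). Mir211, a microRNA of pigment cells, had its peak 213 bp downstream in an intron of Trpm1. Mir652 had its peak 281 bp downstream in an intron of Tmem164, and Mir146b, an inducible microRNA of inflammatory signalling, 315 bp upstream in an intron of Tmem180. The other 4 were Mir1929 (321 bp upstream, in Atg5), Mir7231 (335 bp downstream, in Foxj2), Mir7243 (347 bp upstream, in Ephb1) and Mir196a-1 (350 bp downstream, in the Hoxb cluster). Of these 10 peaks, 9 held a run, and the exception was Mirlet7i. None of the 10 belonged to a gene of the heart muscle list, where the closest peak was that of Mir206 at 537 bp. In the cardiomyocyte part of that list the closest was that of Mir208b at 1.76 kb.

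A peak overlapped the hairpin itself at 7 of the 989 placed hairpins (0.708%, interval 0.343 to 1.45%), namely Mir146b, Mir196a-1, Mir211, Mir7093, Mir7231, Mir7688 and Mir5130. The peak over Mir5130 was assigned to the coding gene Kctd12. Any peak lay within 1 kb of 28 hairpins (2.83%) and within 10 kb of 229 (23.2%), and 81 of the latter had no peak of their own by the closest start site. An assigned peak was found for 122 of 301 hairpins between genes (40.5%, interval 35.1 to 46.2%), for 164 of 538 inside a coding gene of the same strand (30.5%, interval 26.7 to 34.5%) and for 58 of 150 in other genes (38.7%, interval 31.2 to 46.7%). For coding genes of RefSeq the share with an assigned peak was 48.6%.

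Peaks were unevenly spread over the genes. A single peak was assigned to 172 genes, 2 or more to 251, and 10 or more to 51 genes, which together held 790 peaks. The median gene had 2 peaks, and the closest peak of a gene lay a median of 13.8 kb from the hairpin. It was within 1 kb at 26 genes, within 10 kb at 173 and within 100 kb at 413. Genes with a microRNA number of 1000 or above, most of which were named from sequencing and have no well described function, made up 259 of the 423 and held 1135 peaks. The 164 genes with lower numbers or a let-7 name held 582. How many of all microRNA genes in RefSeq have a number of 1000 or above was not counted, so these numbers have no background.

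The 10 genes with the most peaks held 258, of which 200 were intergenic and 58 intronic, and 249 held a run. Mir6350 had 45 peaks, the most of any microRNA gene, spread from 46.0 to 1663 kb. Mir7232 and Mir7j had 28 each, with the closest at 117 kb and 10.7 kb. Mir6336 had 25, all in introns of Lrp1b, a very long gene of the LDL receptor family, and at least 74.5 kb from the hairpin. Mir3106 had 24, of which 21 were in the long gene Csmd1, and Mir592 had 19, of which 11 were in the glutamate receptor gene Grm8. Mir3961 had 24, Mir6342 had 23, and Mir3963 and Mir5127 had 21 each, all of them intergenic. None of the 10 genes is on the heart muscle list, and their median distances ranged from 151 kb for Mir5127 to 866 kb for Mir6336. The size of the interval in which each hairpin is the closest start site was not measured.

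**Figure D4:**
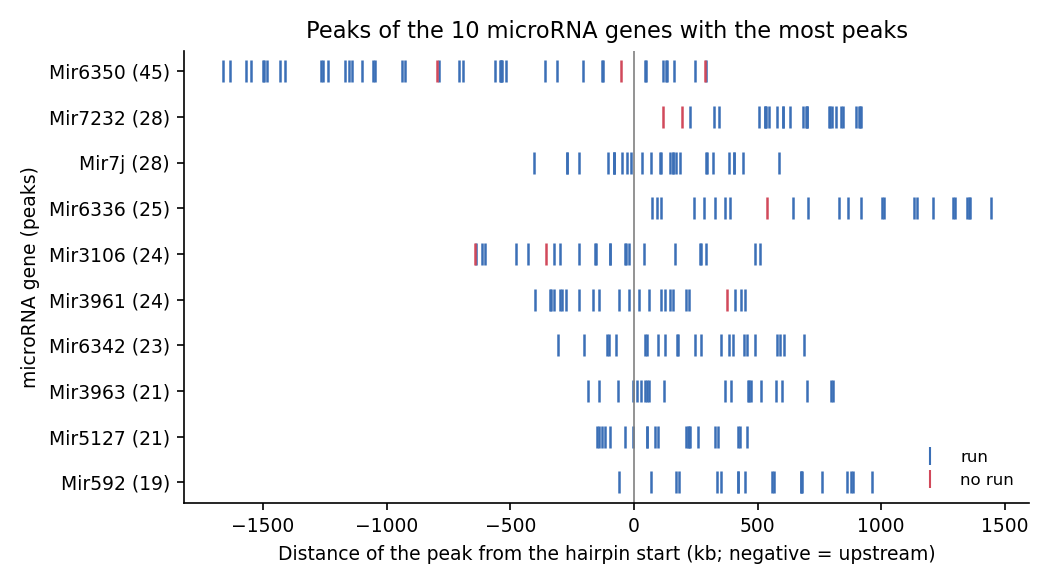
Each tick is a peak of 1 of the 10 microRNA genes with the most peaks, placed by its distance from the hairpin start (kb, negative upstream); numbers in brackets are peaks per gene, and blue or red ticks have or lack a run. The ticks spread far from the hairpins, up to 1663 kb for Mir6350, and those of Mir7232 and Mir6336 lie downstream without exception.

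By chromosome, microRNA-nearest peaks numbered 244 on chromosome 1 (6.51% of the peaks there) and 14 on chromosome 17 (0.847%), and none lay on the Y chromosome.

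Runs of at least 25 purines or pyrimidines in the central 200 bp were present in 1631 of the microRNA-nearest peaks (95%, interval 93.9 to 95.9%), against 94.1% of all peaks. The median longest run was 94 bp, against 92 bp for all peaks. It reached 100 bp in 796 peaks (46.4%), against 44.8% of all peaks, and filled the whole window in 126 (7.34%), against 7.74%. TAAT or ATTA was present in 621 windows (36.2%, interval 33.9 to 38.5%), against 35.3% of all peaks.

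A group of 86 microRNA-nearest peaks, at 72 genes, held no run. Of these, 20 (23.3%, interval 15.6 to 33.2%) lay within 10 kb of the hairpin, against 189 of the 1631 with a run (11.6%, interval 10.1 to 13.2%). TAAT or ATTA was present in 43 of the 86 (50.0%, interval 39.7 to 60.3%) and in 578 of the 1631 (35.4%, interval 33.2 to 37.8%). A GC content of at least 75% was found at 12 of the 86, but at 0 of the 1631, which allows a share of up to 0.184% by a limit of 3 peaks and 0.235% by the Wilson interval. At other genes, 34.6% of the peaks without a run lay within 10 kb, against 14.9% of those with one. TAAT or ATTA was present there in 37.0% and 35.2%, and a GC content of at least 75% in 23.7% and 0.0639%. Among the 2772 peaks without a run at other genes, 611 (22.0%) lay within 1 kb of the TSS, against 3 of the 86 (3.49%, interval 1.19 to 9.76%) at microRNA genes. As the TSS of a microRNA gene is its hairpin, the shares by distance do not measure the same kind of position at microRNA and other genes.

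The 12 GC-rich peaks without a run belonged to 11 genes, and 8 of the peaks lay within 10 kb; they are named here after their values were seen. Besides Mirlet7i and the 2 peaks of Mir17, Mir1247 had one 0.391 kb upstream of its hairpin, which was also 0.452 kb from the start of Dio3os, an imprinted noncoding RNA. Mir3108 had one 2.45 kb downstream in an intron of Zfhx3, and Mir3080, Mir181c and Mir7086 had theirs at 4.51, 4.8 and 9.95 kb. That of Mir5128 lay 0.023 kb from an annotated start site of the coding gene Strbp. The Mir30d and Mir701 peaks were 21.7 kb and 24.4 kb upstream of their hairpins. The closest peak of Mir7-2, 0.885 kb downstream, and that of Mir124a-3, 9.22 kb upstream, also held no run, but had a GC content of 51.0% and 52.5%.

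**Figure D5:**
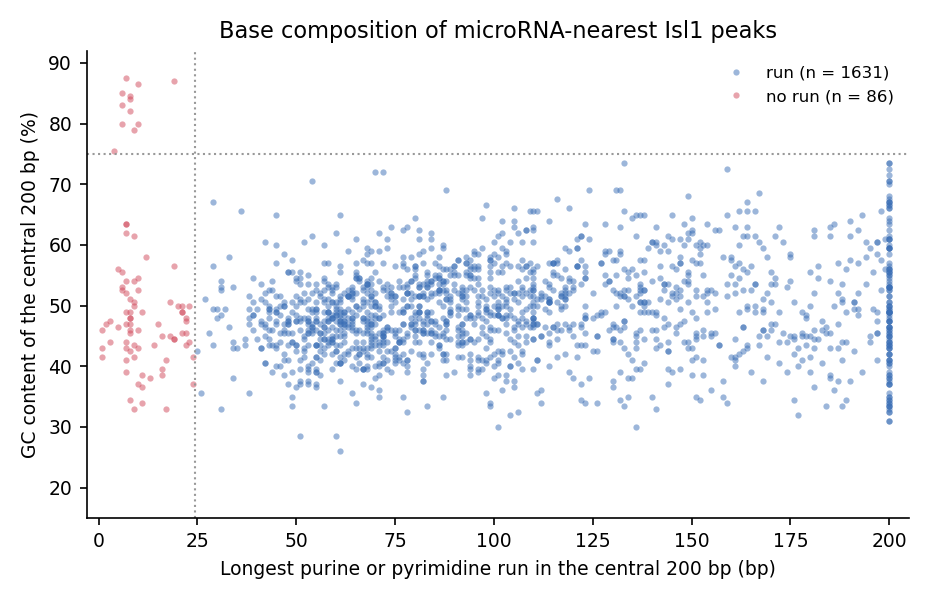
Longest purine or pyrimidine run (bp) against GC content (%) in the central 200 bp of each of the 1717 microRNA-nearest peaks; blue points hold a run of at least 25 bp (left dotted line) and red points do not, and the horizontal dotted line is at 75% GC. The 12 points above 75% GC all lack a run, and points at 200 bp are windows that are a run throughout.

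By seed, 367 of the 423 genes had a mature sequence in RefSeq, with 510 different seeds among their strands. A seed was shared by 3 or more of these genes in 5 cases. GAGGUAG, the let-7 seed, was shared by Mirlet7c-1, Mirlet7d and Mirlet7i, which had 8 peaks between them. GGAAUGU, the seed of miR-206-3p printed above, was also that of Mir6349 and Mir6382, and the 3 genes had 7 peaks. The main strands of miR-1a, miR-133a and miR-486 were missing from the sequences used. Whether Mir1a-2, Mir133a-1 or Mir486 shares this or another seed by its main strand was therefore not counted. ACAUUCA was shared by Mir181a-1, Mir181b-1 and Mir181c, a family known from lymphocytes and vessels, with 20 peaks. AGCAGCA, the seed of the miR-15 and miR-16 family that restrains cardiomyocyte proliferation, was shared by Mir195b, Mir6342, Mir6353 and Mir6419 with 53 peaks, of which Mir6342 held 23. Only genes with a peak were counted by seed. Mir15a, Mir15b, Mir16-1, Mir16-2, Mir195a and Mir497 of the heart development list had no assigned peak. GUCAGGC joined Mir344, Mir344d-1 and Mir344d-3, with 4 peaks.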

How the data were processed

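The members and gene lists used here were chosen with earlier results of these data known. Per the study's methods, the authors mapped reads to mm9 with bowtie2 at default settings, discarded duplicates (Picard 1.136), used MACS to call peaks, dropped those on ENCODE blacklist regions and annotated the rest with the nearest TSS. The deposited list holds positions and signed distances in bp. The methods mention intersecting replicates (bedtools) but do not name the embryo samples there, and a figure legend gives a replicate number without tying it to this list, so whether the list is such an intersection remains unsettled. From it, 1 header line inside the list was skipped. RefSeq hairpins were matched to mm9 without mismatch. Peak windows of 200 bp around the midpoint were read with pysam 0.24.0 and scanned for runs of at least 25 purines or pyrimidines and for TAAT on both strands. GENCODE M1 gave gene bodies at the midpoint. Of the members, 422 of 423 RefSeq entries were found in the RefSeq gene table (GRCm38), which was used for names and gene types only. 22 genes could not be placed on mm9, and 59 were placed from the list's own distances.

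Shares carry 95% Wilson intervals (scipy 1.17.1); with 1 list there was no test. Named were all heart muscle microRNAs, genes of the other lists with a peak within 100 kb, the 10 genes with the most peaks, the 10 closest peaks and hairpins under a peak. Scripts were tested on simulated data. Alternatives were peak width, distance limits, run length, scanned length, peaks without a run, gene overlap and, added after seeing the data, counting host RNAs. The sequence of 1 peak and the gene next to another are not reported here.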

Additional observations from a re-analysis of the deposited data

How the results depend on the processing

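The 1717 peaks fell to 835 when peaks had to be wider than the median of all peaks (466 bp), a stand-in for a stricter threshold since the list holds no heights, and to 86 without a run. The 423 genes fell to 173 with peaks within 10 kb, to 251 with at least 2 peaks and to 72 among peaks that lack a run. The share within 10 kb was 23.3% among peaks without a run, and limits of 5 kb and 20 kb gave 7.45% and 20.8%. With a run of 40 bp the share with a run was 92.9% (91.2% of all peaks), and over the whole peak it was 97.4%. Over the whole peak, TAAT was present in 85.2%, against 82.8% of all peaks. The other 17 of 28 alternatives stayed within 1.5 times the count or within the interval of the share, among them those for the 6 heart muscle genes, which became 5 with wide peaks and 4 within 10 kb. Counting host RNAs, added after seeing the data, gave 10 neural genes (7 as reported) and 10 heart development genes (9), and left the other lists as they were. No paired analysis was possible because there is 1 peak list. The sequencing depth is unknown, so a gene without a peak may have been missed.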

Other observations

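A pair of genes outside the lists was noticed after the values were seen. Mir133c, listed on chromosome 2, had 1 peak 70.2 kb upstream without a run. Mir490, in the muscarinic receptor gene Chrm2, had a peak in an intron of that gene 1.33 kb upstream of its hairpin, with a run of 81 bp.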
